A study of Mus musculus with 20 samples.

Results

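The Wnt ligands examined here are the 10 genes Wnt1, Wnt3, Wnt3a, Wnt4, Wnt5a, Wnt5b, Wnt7a, Wnt7b, Wnt8b and Wnt11. They were picked by gene symbol and are 10 of the 37561 genes that all the tables share. Both lines were derived from mouse ESD3 embryonic stem cells of strain 129s2/SvPas, which were kept on fibroblast feeders. Viral infection gave the control line an shRNA against luciferase and the HPRT-knockdown line an shRNA against HPRT, the purine salvage enzyme. Spherical neural masses (SNM), balls of neural precursors, were then driven toward dopaminergic neurons. Sequenced RNA came from each of days 0 to 4 of differentiation, then from every even day up to day 14, with 1 library per line and day and 20 libraries in all. The RNA of a time point was a pool, from replicated cultures per the labels, no source used here gives more than 1 infection per line, and the days of a line are not separate lines. The p-values given here therefore measure the spread between these days of these lines. Day 6 was left out of every test of a line difference or slope, as the study treated it as discrepant. Its values are given for the ligands and Hprt, and for other genes only where stated.

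Wnt proteins are secreted glycoproteins that carry a lipid, and cells receive them through Frizzled receptors. With the co-receptors Lrp5 and Lrp6 they keep beta-catenin from being destroyed, and beta-catenin then acts with TCF/LEF factors on target genes. Other Wnt proteins act mainly without beta-catenin on cell polarity, movement and axon growth. In the developing neural tube Wnt1, Wnt3 and Wnt3a are made along the dorsal midline, Wnt1 also at the midbrain-hindbrain boundary and in the midbrain that gives rise to dopaminergic neurons. Wnt5a is made in the ventral midbrain, Wnt7a and Wnt7b in dividing progenitors, and Wnt8b in the cortical hem, a signaling center of the telencephalon.

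The libraries held between 5583251 and 11550276 reads over the 10378 genes whose reads could be recovered from the deposited values. Levels are given as normalized reads, which are reads divided by the size factor of the library (0.791 to 1.49). The targeted gene, Hprt, was lower in the knockdown line on 9 of 9 days (mean log2 ratio -4.00 ± 0.888, SD), and its 2 ranges did not overlap. On day 6 its log2 ratio was -3.42. The level filter kept 13896 genes with a log2 level of at least 4. For 9243 of them this level is the log2 of the mean normalized reads over the 20 libraries. The others have no recovered reads, and their level was estimated from the rounding of the deposited values. A gene can pass this filter through 1 line alone. Among the 13896, limma with Benjamini-Hochberg adjustment called 52.4% different between the lines at an adjusted p under 0.05. In bulk RNA, fewer cells of a type and less RNA per cell cannot be told apart, and this holds for every level given here.

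The dorsal ligands Wnt1, Wnt3 and Wnt3a were lower in the HPRT-knockdown line, with mean log2 ratios between -1.85 and -1.34. Wnt4, Wnt5a and Wnt5b were higher, with mean log2 ratios between 0.95 and 1.06. Wnt7a, Wnt7b, Wnt8b and Wnt11 did not pass the test. Of the 8 members that passed the level filter, 2 were called lower and 3 higher, beside 26.4% and 26% of all genes tested, so the members' share was near that of the genome as a whole. Wnt3a and Wnt8b were under the level filter and were tested in a fit without it, which called 40.5% of 19041 genes (20.8% lower), and Wnt3a was called lower there. The ratio kept its sign on all 9 days for Wnt3 and Wnt5a among the 8 members, beside 29.2% of all genes tested.

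The upstream sequences of members that were lower (Wnt1, Wnt3) and higher (Wnt4, Wnt5b) in the knockdown line, and of Wnt11, are shown as examples. Of the starts of Wnt5b and Wnt11, only the one with a TCF/LEF match, defined below, is printed. The run of Wnt3a is not printed, so the sets are not shown alike. Each run is the 250 bases before a RefSeq start in GRCm38.p6, on the strand of the gene and ending next to the start. That build is not the one the reads were counted on. Capitals mark GGGCGG, the GC box, and CTTTGAT or CTTTGTT, letters that TCF/LEF factors are known to bind, on either strand, where overlapping matches run together.
Wnt1, chr15:98789607-98789856, + strand: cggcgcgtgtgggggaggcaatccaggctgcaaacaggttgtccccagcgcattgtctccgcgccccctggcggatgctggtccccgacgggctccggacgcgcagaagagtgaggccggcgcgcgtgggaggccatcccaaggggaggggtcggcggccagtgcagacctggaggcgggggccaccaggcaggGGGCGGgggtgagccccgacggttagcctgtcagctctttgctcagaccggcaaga
Wnt3, chr11:103773925-103774174, + strand: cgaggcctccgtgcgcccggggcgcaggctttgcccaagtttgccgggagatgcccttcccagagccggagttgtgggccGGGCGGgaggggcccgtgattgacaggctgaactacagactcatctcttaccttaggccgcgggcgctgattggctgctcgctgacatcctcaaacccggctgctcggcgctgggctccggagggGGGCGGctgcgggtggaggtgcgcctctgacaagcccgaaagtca
Wnt4, chr4:137277385-137277634, + strand: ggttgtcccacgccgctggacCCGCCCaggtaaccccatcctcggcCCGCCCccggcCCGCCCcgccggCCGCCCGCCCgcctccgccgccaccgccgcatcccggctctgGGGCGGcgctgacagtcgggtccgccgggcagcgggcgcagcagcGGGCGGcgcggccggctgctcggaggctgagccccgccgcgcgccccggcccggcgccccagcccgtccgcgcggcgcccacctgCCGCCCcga
Wnt5b, chr6:119449387-119449636, - strand: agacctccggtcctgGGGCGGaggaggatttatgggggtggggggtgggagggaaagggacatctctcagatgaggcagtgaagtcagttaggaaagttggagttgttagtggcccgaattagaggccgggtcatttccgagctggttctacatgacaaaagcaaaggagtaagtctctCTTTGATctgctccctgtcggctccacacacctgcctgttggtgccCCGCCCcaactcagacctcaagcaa
Wnt11, chr7:98834862-98835111, + strand: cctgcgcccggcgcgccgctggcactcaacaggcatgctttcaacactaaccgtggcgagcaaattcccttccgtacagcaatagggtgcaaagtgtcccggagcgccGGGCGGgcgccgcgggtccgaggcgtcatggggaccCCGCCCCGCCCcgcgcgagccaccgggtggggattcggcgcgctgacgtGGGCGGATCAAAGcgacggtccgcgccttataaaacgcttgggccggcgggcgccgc

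A TCF/LEF match stood in 2 of the 11 upstream runs of the 8 members that RefSeq's table covers. It began 71 bases before the third of 3 starts of Wnt5b and 51 bases before the first of 2 starts of Wnt11. Over 32851 promoters, 8.06% of the same 250 bases held CTTTGAT or CTTTGTT and 32.7% held GGGCGG. Among the lower ligands the run of Wnt1 held 1 GC box, that of Wnt3 held 2 and that of Wnt3a held 9, and among the higher ones that of Wnt4 held 8 and the 3 runs of Wnt5b held 0 to 2, so the boxes did not separate the sets. The GC content was 71.6% before Wnt1, 68% before Wnt3, 87.6% before Wnt3a and 85.2% before Wnt4. It was 75.2%, 53.2% and 55.6% before the 3 starts of Wnt5b, beside a median of 52.4% over all promoters. Wnt1 and Wnt3, both lower in the knockdown line, thus had no TCF/LEF letters in these windows, and neither did Wnt4, which was higher. Wnt5a and Wnt7b were not matched.

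Wnt1 is required for the midbrain and its dopaminergic neurons. It lies on chromosome 15, 98620288 to 98624268 (NCBIM37, + strand), in 5 exons with a summed length of 2392 bases. Control Wnt1 stood at 81.8, 10.1, 49.2, 55.6, 135, 33.1, 46.0, 19.7, 15.8 and 5.91 normalized reads on the 10 days, in order from day 0 to day 4 and then on days 6, 8, 10, 12 and 14. Knockdown Wnt1 stood at 22.9, 3.12, 65.6, 23.6, 53.9, 13.1, 20.3, 3.29, 3.67 and 0 on the same days. Both lines dipped on day 1, the control line was highest on day 4 and the knockdown line on day 2, and both were lowest on day 14. The 2 ranges overlapped, with 4 of the 9 knockdown days below every control day. The same-day log2 ratio averaged -1.56 ± 0.934 (SD, n = 9 days) and was negative on 8 of the 9, which is 2.95-fold lower. The limma fit gave an adjusted p of 0.00148. The 0 reads of knockdown day 14 allow up to 3 and entered the ratio as 1 normalized read. The exception to the sign was day 2, with a log2 ratio of 0.45, and day 6 stood at -1.39. Without the pairing of the lines by day, the difference was -1.58 and its adjusted p from limma was 0.121, so the call of Wnt1 rests on comparing the lines within days.

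Wnt3, a ligand of the dorsal neural tube that acts through beta-catenin, lies on chromosome 11, 103635464 to 103679271 (+ strand, 5 exons). Its control values were 57.0, 68.0, 65.7, 94.4, 85.1, 63.4, 45.8, 21.5, 27.8 and 23.6 normalized reads over the same 10 days. Its knockdown values were 50.2, 19.8, 12.3, 31.5, 24.8, 52.2, 12.9, 14.5, 8.56 and 18.1. The lines were close on day 0 and day 6. They stood apart from day 1 to day 4 and again on days 8 and 12 (log2 ratios -1.79 and -1.69). They were nearer each other on days 10 (-0.56) and 14 (-0.34). The ranges overlapped, with 6 of 9 knockdown days under every control day. The mean log2 ratio was -1.34 ± 0.772 (SD, n = 9 days), lower on 9 of 9 days and 2.53-fold lower, with an adjusted p of 0.00125 from limma. The largest differences fell on day 2 (log2 ratio -2.38), and the smallest on day 0 (-0.19).

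Wnt3a, the main beta-catenin ligand of the roof plate, lies on chromosome 11, 59061535 to 59104254 (- strand, 4 exons), and was at the edge of detection. Control libraries held 11, 4, 7, 12, 11, 6, 2, 5, 4 and 3 reads over the 10 days. Knockdown libraries held 6, 1, 2, 0, 1, 0, 2, 0, 0 and 1 reads. A library with 0 reads allows up to 3, and this limit covers counting error only. In normalized reads, 7 of the 9 tested knockdown days were under every control day, and on day 8 both lines held 2 reads. In the fit without a level filter the mean log2 ratio was -1.85 ± 0.929 (SD, n = 9 days), lower on 9 of 9 days, with an adjusted p of 0.00135 from limma. Since the deposited values treat fewer than 1 normalized read as 1, this mean depends on that floor.

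**Figure D1:**
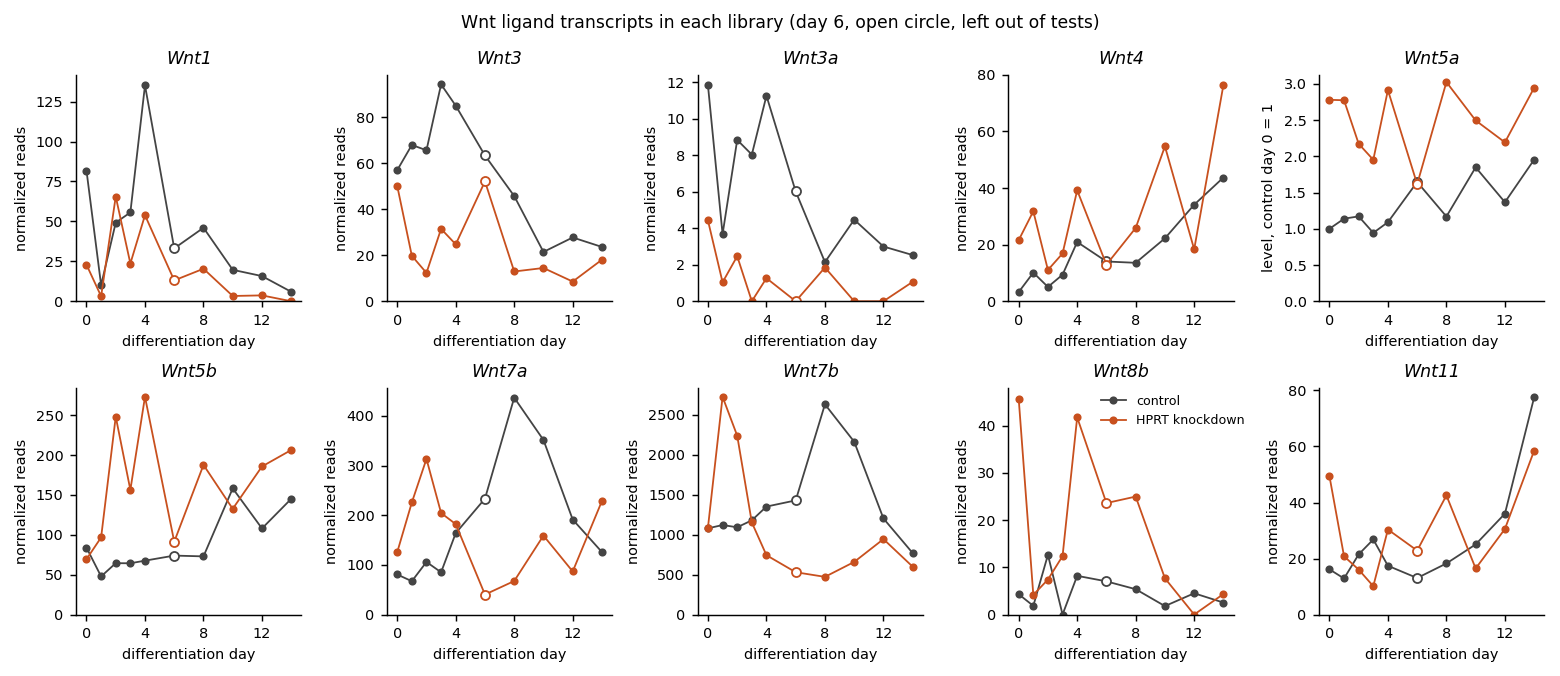
Level of each Wnt ligand (vertical axes, normalized reads, for Wnt5a the level relative to control day 0) against differentiation day (horizontal axes) in the 10 control libraries (grey) and the 10 HPRT-knockdown libraries (orange), with day 6 as open circles. Each point is 1 library. Wnt1 and Wnt3 lie lower in the knockdown line on most days, Wnt5a lies higher on all days but day 6, and Wnt7a and Wnt7b peak on day 8 in the control line and on days 2 and 1 in the knockdown line.

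Wnt4 is a ligand of the floor plate that guides axons, and it acts largely without beta-catenin. It lies on chromosome 4, 136833404 to 136855641 (+ strand, 5 exons). Control values were 3.23, 10.1, 5.05, 9.38, 20.9, 14.0, 13.6, 22.2, 34.1 and 43.7 normalized reads over the 10 days. Knockdown values were 21.6, 31.8, 11.1, 16.9, 39.2, 12.9, 25.9, 54.7, 18.3 and 76.4. The control line was low at the start and high at the end, while the knockdown line was above it on every tested day but day 12. The ranges overlapped, with 2 of 9 knockdown days above all control days. The mean log2 ratio was 1.06 ± 0.939 (SD, n = 9 days), higher on 8 of 9 days and 2.09-fold higher, with an adjusted p of 0.0108 from limma. Without the pairing by day the adjusted p was 0.0851, and the call was lost. The largest ratio was that of day 0 (2.73), on 3 control reads.

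Wnt5a signals without beta-catenin in many cells and takes part in forming midbrain dopaminergic neurons. It lies on chromosome 14, 29317936 to 29340633 (+ strand, 7 exons, 7822 bases). Its reads could not be recovered, apart from a lower bound of 1602 reads in the control library of day 4, so levels are given relative to control day 0. Control levels were 1, 1.14, 1.17, 0.944, 1.09, 1.65, 1.17, 1.85, 1.37 and 1.96 over the 10 days. Knockdown levels were 2.78, 2.78, 2.17, 1.95, 2.92, 1.62, 3.03, 2.50, 2.19 and 2.95. The knockdown line was above every control day on 8 of 9 tested days, day 3 missed the highest control day (day 14) by little, and on day 6 the lines met (log2 ratio -0.07). The mean log2 ratio was 1.04 ± 0.385 (SD, n = 9 days), higher on 9 of 9 days and 2.06-fold higher, with an adjusted p of 0.00019 from limma. Its SD over days was the smallest among the 10 ligands. An exon of Wnt5a overlaps the gene Gm2670, and no source states that reads were counted by strand, so reads of the pair cannot be told apart.

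Wnt5b, a close relative of Wnt5a, lies on chromosome 6, 119382549 to 119494336 (- strand, 7 exons). Its control values were 84.0, 47.8, 64.4, 64.3, 67.6, 74.0, 73.0, 158, 108 and 145 normalized reads. In the knockdown line they were 69.4, 96.7, 248, 156, 273, 91.4, 188, 133, 186 and 206. The knockdown line exceeded the control line from day 1 to day 8 and was under it on days 0 and 10. The ranges overlapped, and 5 of 9 knockdown days were above all control days. The mean log2 ratio was 0.95 ± 0.849 (SD, n = 9 days), higher on 7 of 9 days and 1.93-fold higher, with an adjusted p of 0.0117 from limma. The ratio was highest on days 4 (2.05) and 2 (1.98).

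Fibroblasts and other mesenchymal cells are known to make Wnt5a and Wnt5b, and the stem cells had been grown on fibroblasts. Of 13 measured fibroblast and mesenchyme markers, 3 were lower in the knockdown line (Fap, Lum and, named to complete the count, Postn). The limma test called 0 higher, and 1 was higher at an unadjusted p under 0.05. The summed level of the 10 of these markers with recovered reads ran from 4996 to 66403 normalized reads in the control libraries and from 5797 to 29196 in the knockdown libraries. No marker of the list with recovered reads had a group mean of 0. The part of such cells in the Wnt5a and Wnt5b levels was not tested.

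Wnt7a, made by neural progenitors and known for roles in synapses, lies on chromosome 6, 91313975 to 91361357 (- strand, 4 exons). Control values were 80.7, 67.1, 106, 85.1, 164, 233, 437, 352, 191 and 126 normalized reads. Knockdown values were 126, 226, 313, 204, 182, 40.2, 67.5, 159, 86.8 and 229. The knockdown line was higher from day 0 to day 4, lower from day 6 to day 12 and higher again on day 14, and no knockdown day among the 9 lay outside the control range. The same-day log2 ratio was highest on day 1 (1.70) and lowest on day 8 (-2.66). Its mean was 0.16 ± 1.50 (SD, n = 9 days), with an adjusted p of 0.785 from limma. The mean over days is thus small beside the daily differences, which had both signs.

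Wnt7b, which supports neurite growth and brain vessels, lies on chromosome 15, 85365869 to 85412251 (- strand, 6 exons, one of which overlaps AU022754). Control values were 1078, 1119.6, 1091, 1178, 1350.4, 1428, 2629.5, 2161, 1202 and 769 normalized reads. Knockdown values were 1088, 2723, 2237, 1152, 742, 529, 471, 658, 944 and 598. The highest library of each line was about equally high, on day 8 in the control line and on day 1 in the knockdown line. Day 1 of the knockdown line was above every control day, and 4 of the 9 knockdown days were below every control day. Day 1 had the highest log2 ratio (1.24), day 3 one of 0.03, and day 8 the lowest (-2.45). The mean of -0.37 ± 1.19 (SD, n = 9 days) had an adjusted p of 0.409 from limma. The ratios of Wnt7a and Wnt7b were both positive on days 1 and 2 and both negative on days 8, 10 and 12, and they had opposite signs on day 4 (0.19 and -0.83) and day 14 (0.91 and -0.32). The slope of the ratio on day was not called for either (adjusted p 0.232 and 0.245 from limma), so no trend of the ratios over the days passed a test.

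Wnt8b, a ligand of the cortical hem, lies on chromosome 19, 44567962 to 44588763 (+ strand, 6 exons), and was sparse in the control line. Control values were 4.31, 1.84, 12.6, 0, 8.19, 7.02, 5.37, 1.79, 4.50 and 2.53 normalized reads. Knockdown values were 45.7, 4.16, 7.40, 12.4, 41.7, 23.6, 25.0, 7.67, 0 and 4.34. The 3 highest of the 9 knockdown days (0, 4 and 8) were above every control day, while 0 reads, which allow up to 3, were found on control day 3 and knockdown day 12. Without the level filter the mean log2 ratio was 1.44 ± 1.95 (SD, n = 9 days), higher on 7 of 9 days, with an adjusted p of 0.0913 from limma. When day 12 was left out, the mean was 1.90 with an adjusted p of 0.0182 from limma, so the call turned on that day, on which the knockdown library held 0 reads.

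Wnt11, known for cell movements and for signaling without beta-catenin, lies on chromosome 7, 105983622 to 106003705 (+ strand, 7 exons), where an exon overlaps the pseudogene Gm8398. Control values were 16.1, 12.9, 21.5, 26.8, 17.4, 13.0, 18.2, 25.0, 36.0 and 77.6 normalized reads. Knockdown values were 49.5, 20.8, 16.0, 10.1, 30.4, 22.8, 42.5, 16.4, 30.6 and 58.5. Neither line lay above the other throughout, and 1 knockdown day (day 3) was under every control day. The mean log2 ratio of 0.16 ± 0.971 (SD, n = 9 days) was positive on 4 of 9 days, with an adjusted p of 0.673 from limma.

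**Figure D2:**
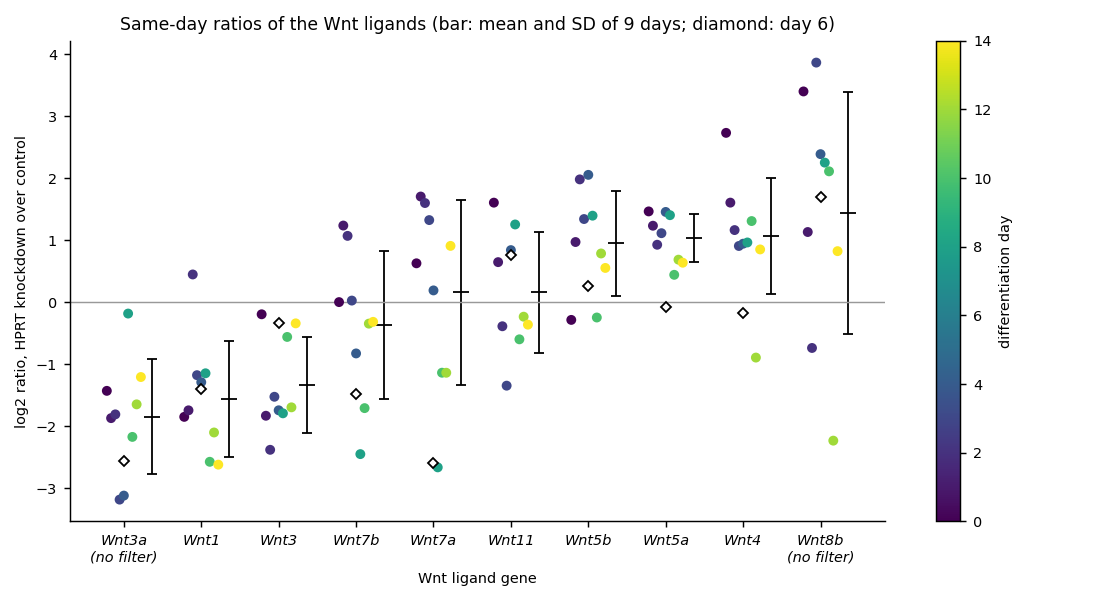
Same-day log2 ratio of HPRT knockdown over control (vertical axis) for each Wnt ligand (horizontal axis), with 1 point per tested day colored by differentiation day, a diamond for day 6, and a bar for the mean and SD of the 9 days. The points of Wnt3 and Wnt3a are all under 0 and those of Wnt5a all above it, while Wnt7a runs from -2.66 to 1.70 around a mean of 0.16.

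Compared per kilobase of exon, Wnt7b was the most abundant of the 9 ligands with recovered reads, with 317 ± 135 normalized reads per kilobase (mean ± SD, n = 9 days) in the control line and 267 ± 177 in the knockdown line. It stood above the next of them on 9 of 9 days in both lines. For Wnt5a the lower bound ran from 375 to 582 per kilobase over the knockdown days and was above Wnt7b on 7 of 9 of them, so Wnt5a ranked above Wnt7b on at least those days. In the control line the bound ran from 181 to 376 and was above Wnt7b on 1 of 9 days, which leaves the order there unknown. In the control line Wnt7a (56.3 ± 41.1), Wnt5b (34.4 ± 14.7), Wnt1 (19.5 ± 17.4) and Wnt3 (17.7 ± 8.66) followed. Wnt1 exceeded Wnt3 on 4 of 9 days only, so these neighbors were not ordered beyond their spread. Wnt11 (7.69 ± 5.46), Wnt4 (4.30 ± 3.25), Wnt3a (2.25 ± 1.39) and Wnt8b (1.35 ± 1.14) were the least abundant control ligands.

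In the knockdown line Wnt5b (65.9 ± 25.4 per kilobase) and Wnt7a (55.8 ± 24.3) came next after Wnt5a and Wnt7b and were not ordered, Wnt5b being above Wnt7a on 5 of 9 days. Wnt1 (9.12 ± 9.86), Wnt11 (8.41 ± 4.57), Wnt4 (7.84 ± 5.01) and Wnt3 (6.96 ± 4.18) lay close together, and Wnt1 stood above Wnt11 on 3 of 9 days. Wnt3 thus came after Wnt11 and Wnt4 in the knockdown line and before both in the control line. Wnt8b (4.88 ± 5.03) exceeded Wnt3a (0.488 ± 0.522) on 8 of 9 days. These orders compare mean levels on a linear scale and carry no test.

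Over the course, 5 of the 8 members had a control slope on day that limma called at an adjusted p under 0.05, beside 41.2% of all genes tested. Wnt3 fell in the control line by 0.13 log2 units per day (adjusted p = 0.00578 in limma). Wnt4 rose most steeply, by 0.22 per day (adjusted p = 0.00273 in limma). Wnt11 rose by 0.12 per day, Wnt5b by 0.093 and Wnt5a by 0.063, with limma adjusted p-values of 0.011, 0.0123 and 0.0103. Without day 14, none of these 3 slopes passed (adjusted p-values of 0.0616, 0.0549 and 0.0599 in limma). In the fit without a level filter, which called 33.4% of genes, Wnt3a fell by 0.17 per day (adjusted p = 0.0194 in limma), and this call was lost without day 0, 12 or 14. Wnt1 had a slope of -0.17 per day in the control line (adjusted p = 0.107 in limma), which was called without day 1 (-0.25, adjusted p = 0.00692). The slopes of Wnt7a (0.11), Wnt7b (0.013) and, without the filter, Wnt8b (-0.018) were not called, and that of Wnt7a was called once day 14 was left out (0.19, adjusted p = 0.0216 in limma).

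In the knockdown line limma called 0 of the 8 slopes, beside 12.1% of all genes tested. No share of all genes is given for the looser threshold of an unadjusted p under 0.05, which 3 of the 8 passed. These were Wnt1 (-0.27 per day), Wnt7b (-0.11) and Wnt3 (-0.094), with adjusted p-values of 0.106, 0.101 and 0.15. Without day 1, the knockdown slope of Wnt1 was -0.37 and was called (adjusted p = 0.0239 in limma). The difference between the slopes of the lines was taken as the slope of the same-day ratio. It was called in 0 of 8 members by limma, beside 13.5% of all genes. At an unadjusted p under 0.05, again without a share of all genes, 2 passed. These were Wnt4 (-0.12 per day, adjusted p = 0.121) and Wnt5a (-0.053, adjusted p = 0.107). Without the level filter, limma called neither Wnt3a nor Wnt8b in the knockdown slope (unadjusted p 0.138 and 0.12) or in the difference of slopes (0.362 and 0.231), beside 8.77% and 9.84% of genes. A slope called in the control line and not in the knockdown line is therefore not shown to differ between them.

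**Figure D3:**
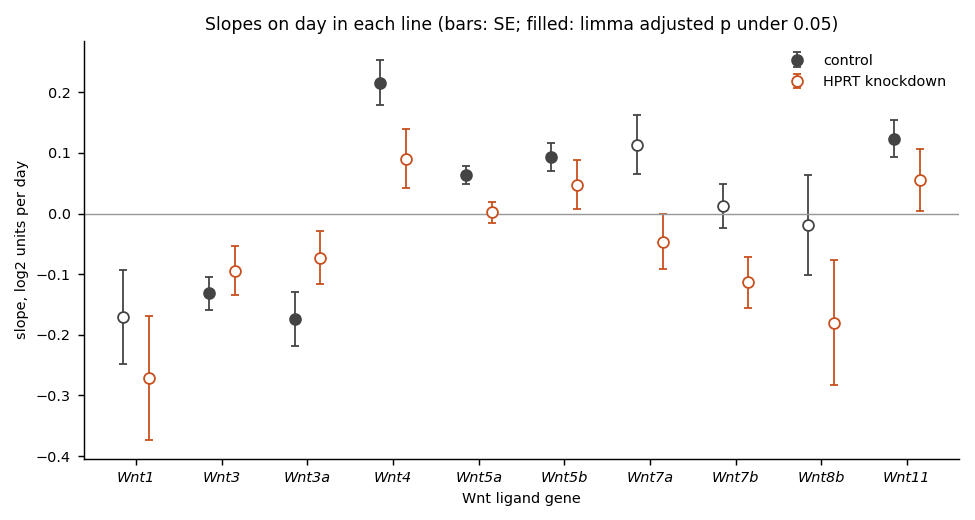
Slope of the log2 level on differentiation day (vertical axis, log2 units per day) of each Wnt ligand (horizontal axis) in the control line (grey) and the HPRT-knockdown line (orange), with SE bars and filled points where the limma adjusted p is under 0.05. Wnt3a and Wnt8b are from the fit without a level filter. Wnt4 has the steepest rise in the control line (0.22), and no knockdown slope is filled.

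Across the 20 libraries, the gene whose log2 level was most like that of Wnt1 was 2810030E01Rik (Pearson r = 0.944), followed by Limd2 (0.937). Wnt3 was most like Fzd10 (0.886), a Frizzled receptor, and Rassf7 (0.885). The closest genes to Wnt5a were Plcl1 (0.943) and Ccdc157 (0.937), those to Wnt5b were Pknox2 (0.857) and Zfp503 (0.835), and those to Wnt4 were Agap1 (0.844) and Ttc17 (0.825). Wnt7b was most like Fam84a (0.851) and Exoc8 (0.849), Wnt11 like Prrt2 (0.837) and Jph4 (0.832), and Wnt7a had the weakest neighbors, Gdpd5 (0.776) and Fam160b2 (0.758). Among the members themselves, r was highest for Wnt5a with Wnt5b (0.71), Wnt4 with Wnt5a (0.70) and Wnt7a with Wnt7b (0.66), and lowest for Wnt3 with Wnt5b (-0.84). The libraries share 2 lines and the order of days, so these coefficients describe the points and are given without a test.

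The other genes of the pathway were read from lists, whose counts are of genes passing the level filter and whose medians stand beside a median of 0.0025 over all genes tested. Each count is to be read beside the 26% of all genes that were called higher and the 26.4% called lower, and the counts of the pathway lists are descriptions with no test of the list. Of the other Wnt ligands, 4 were tested. Wnt2b (mean log2 ratio 0.88) and Wnt9a (0.60) were higher, and Wnt8a (-2.86) and Wnt16 (-1.30) were lower. Mean normalized reads (control, knockdown) were 14.5 and 22.9 for Wnt2b, 92.5 and 8.36 for Wnt8a, and 26.8 and 11.5 for Wnt16. Each of these passed the filter only through the line where it was higher. Under the filter, in the fit without it, Wnt2 (1.48) and Wnt6 (1.45) were called higher, and Wnt9b, Wnt10a and Wnt10b were not called. That fit called 40.5% of genes. Among 10 genes of Wnt secretion and release, 3 were higher and 1 lower, with a median of 0.33. The higher ones included Gpc3, a glypican that holds Wnt at the cell surface (1.303), and Gpr124, which with Reck makes cells receptive to Wnt7a and Wnt7b (0.83). The lower one was Notum, the enzyme that removes the lipid from Wnt (-2.15).

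Of 10 Frizzled receptors, 4 were higher and 2 lower (median 0.10), with Fzd4 at 0.87, Fzd5 at 0.82, Fzd10 at -1.11 and Fzd7 at -0.90. Of 7 co-receptors and alternative receptors, 1 was higher (Lrp6, 0.33, from 1 of its 2 rows) and 3 lower (median -0.16), among them Ror1, a receptor of Wnt5a (-0.87), and Musk (-2.78). Musk had mean normalized reads of 33.2 in the control line and 1.98 in the knockdown line. Its ratio had an SD of 3.08 over days and may depend on the floor of 1 normalized read. R-spondins strengthen Wnt signaling by way of Lgr receptors, which keeps the ligases Rnf43 and Znrf3 from removing Frizzled. Of 8 such genes, 4 were higher and 3 lower (median 0.35), with Lgr6 at 1.20, Rnf43 at 1.17, Rspo1 at -1.35 and Rspo3 at -0.68.

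Of 14 secreted inhibitors, 5 were higher and 4 lower (median 0.014). Wif1 (1.55), which binds Wnt itself, and Dkk3 (1.41) were the highest, and Sfrp2 (-2.87), a decoy for Wnt, and Cer1 (-2.32) the lowest. Cer1 had mean normalized reads of 40.7 in the control line and 4.23 in the knockdown line, so its ratio may also depend on that floor. Inside the cell, 5 of 26 genes of the beta-catenin pathway were higher and 8 lower (median -0.038). The co-repressor Tle2 (1.44) and the factor Tcf7l2 (0.83) were higher, and the factors Lef1 (-1.45) and Tcf7 (-1.45) were lower. Of 20 planar cell polarity genes, 5 were higher and 4 lower (median 0.054), with Celsr1 at 0.72, Nfatc1 at 0.71, Celsr3 at -0.94 and Mapk8 at -0.71.

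Of 17 genes listed as targets of beta-catenin, 8 were higher and 3 lower (median 0.41). T, the brachyury factor of mesoderm, was the highest (3.48), from 994 to 9522 mean normalized reads, and Tnfrsf19 followed (1.36). The lower ones were Notum, Lef1 and Tcf7, which are also counted in other lists. So are Lgr5, Rnf43, Znrf3 and Apcdd1 among the higher ones. Axin2, a common readout of the pathway named here after its value was seen, had 457 mean normalized reads in the control line and 469 in the knockdown line, with a mean log2 ratio of 0.037 and an adjusted p of 0.785 from limma.

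Marker lists of the neural tube were set beside the ligands made there. Of 17 roof plate and dorsal genes, 9 were lower and 5 higher in the knockdown line (median -0.68). Pax7 (-5.79) and Msx3 (-3.87), factors of dorsal progenitors, were the lowest, and Lmx1a (2.32), a factor of roof plate and of dopaminergic progenitors, and Bmp4 (1.45) the highest. Pax7 had no recovered reads and an estimated log2 level of 4.5, and Msx3 had a knockdown mean of 14.0 normalized reads. The size of these 2 ratios may therefore depend on the floor of 1 normalized read. Of 10 genes of the midbrain-hindbrain boundary, limma called 5 lower and 0 higher, with 0 higher also at an unadjusted p under 0.05 (median -0.88), Pax2 (-3.29) and Fgf17 (-3.11) the most. Pax2 had no recovered reads and an estimated log2 level of 4.25, and Fgf17 had a knockdown mean of 10.6 normalized reads. Of 14 floor plate and ventral genes, 12 were higher and 1 lower (median 2.25), with Nkx2-1 at 5.25 and Shh, the ventral signal, at 3.59, and with Dbx1 at -3.24. The cortical hem and telencephalon list was split, with 4 higher and 4 lower of 10 (median -0.33), among them Emx2 (1.12), Lhx5 (-2.66) and Lhx9 (-2.13).

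The summed level of the 10 ventral genes with recovered reads ran from 4926 to 13027 normalized reads in the control libraries of the 9 tested days and from 34016 to 88847 in the knockdown libraries. Their highest knockdown means were those of Nkx2-1 (28647) and Olig2 (15567), which is also in the glial list below. For the 6 boundary genes with recovered reads the summed level ran from 1334 to 8035 and from 477 to 898. Pax8 had the highest mean of these (2898 in the control line and 283 in the knockdown line). Both sums thus rest largely on a few genes. For the 12 dorsal genes with recovered reads the ranges overlapped, 9150 to 20877 and 8824 to 27651. Ventral markers were mostly higher and boundary markers were either lower or not called, while dorsal markers differed in both directions and their summed levels did not separate the lines. The part of such regional differences in the Wnt levels was not tested.

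Cell type markers also differed between the lines. As a check of the labelled neural cells, all 9 neural progenitor markers passed the level filter, 2 being higher (Vim, 0.91, and Sox2, 0.52) and 2 lower (Pax6, -1.36, and Hes5, -0.99). Of 9 neuronal markers, limma called 5 lower and 0 higher, 1 being higher at an unadjusted p under 0.05 (median -1.04), with Stmn2 at -2.01 and Elavl4 at -1.99. The summed neuronal level over 6 genes was 13682 to 36502 normalized reads in the control line and 3658 to 15447 in the knockdown line. Of 12 glial markers, limma called 7 higher and 0 lower, and 0 were lower also at an unadjusted p under 0.05 (median 1.50), with Olig2 at 3.02 and Olig1 at 2.51, and the sum over 10 of them ran from 7916 to 35802 and from 24164 to 242799. Mag, which was not called, had the highest knockdown mean of these (44773), and Olig2 is also counted in the ventral list.

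All 9 pluripotency markers were lower (median -2.78), Zfp42 (-3.43) and Tdgf1 (-3.38) the most, and their sum over 8 genes ran from 12355 to 51589 in the control line and from 594 to 14269 in the knockdown line. Markers of choroid plexus (2 higher of 5, Enpp2 at 1.36 and Sostdc1 at 1.27), endoderm (1 lower of 5, Sox17 at -1.89) and endothelium (1 lower of 5, Pecam1 at -1.70) were also measured. No marker of these lists with recovered reads had a group mean of 0. The part of cell makeup in the Wnt differences was not tested.

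**Figure D4:**
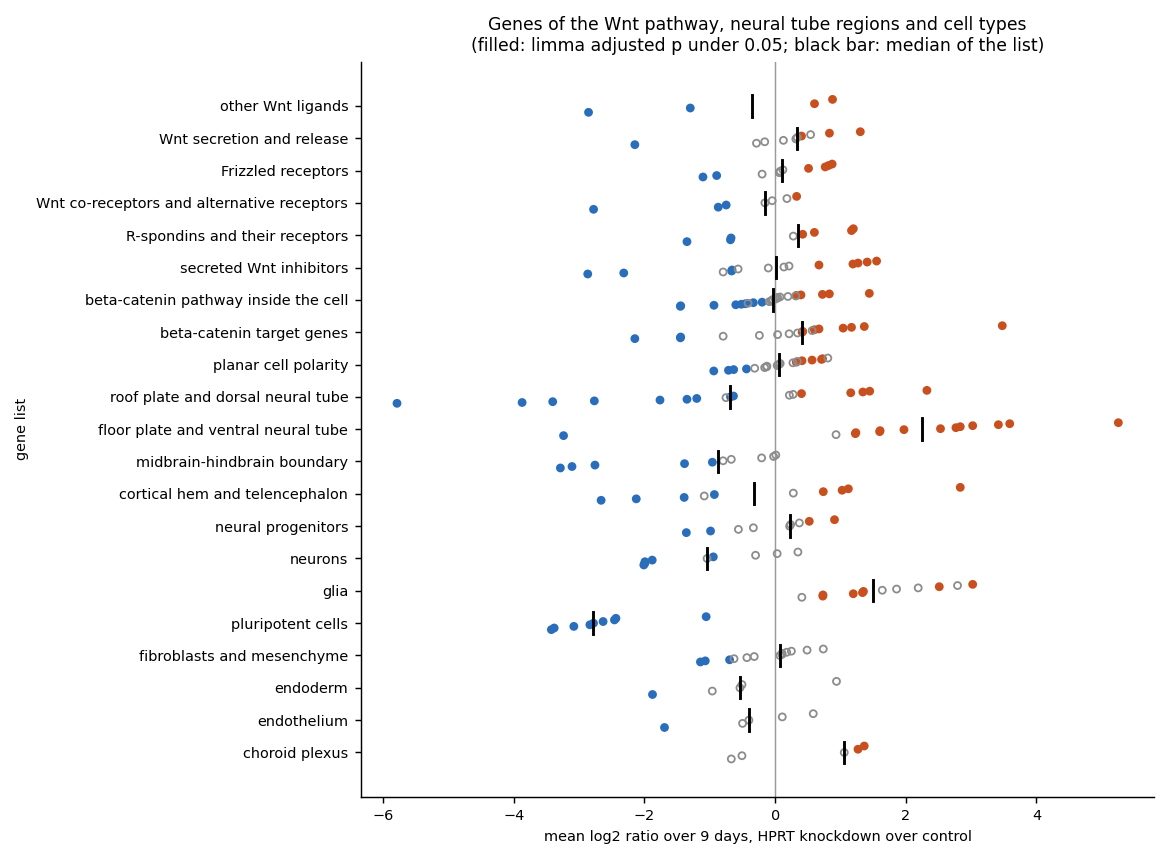
Mean log2 ratio over 9 days, HPRT knockdown over control (horizontal axis), of every tested gene of each list (vertical axis), filled where the limma adjusted p is under 0.05 (orange higher, blue lower), with a black bar at the median of the list. Floor plate and ventral genes lie to the right (median 2.25), pluripotency genes to the left (median -2.78), and the lists of the Wnt pathway are spread on both sides of 0.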

How the data were processed

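RNA from 10 control and 10 HPRT-knockdown SNM collections was sequenced for 50 cycles. Per the study's methods and the submitters' processing notes, the authors aligned reads to NCBI37/mm9 in CASAVA 1.8.2 and normalized counts with DESeq. The authors deposited 28 tables of 2 libraries on a log2 scale, each normalized separately and centred on the mean of its pair, with values under 1 normalized read set to 1. The design had foreseen another unit, so the filter was set on levels recovered here or, for genes without recovered reads, estimated here. Gene positions are from NCBIM37.

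Log2 values of 27 tables were solved jointly for reads, in parts of 1/49 of a read, since some reads count in part. The table of control days 3 and 4 was at odds with the others, and that step was taken through the knockdown tables. This gave reads for 10378 genes. Of their values, 35.6% were whole reads. Line differences were tested with limma 3.58.1 in R 4.3.3 on the 9 same-day ratios, with Benjamini-Hochberg adjustment over all genes and a threshold of 0.05. Slopes on day were fitted alike to values joined over the tables. The scripts were tested on simulated data. Alternatives were another level filter, no filter, day 6 kept, leaving out each day, median centring, a sign-flip permutation test, unpaired lines, a pseudocount of 1 on recovered reads, and slopes on log2(day + 1). Libraries shared the lanes of a flow cell, and the lane of each library is not given in the sources used here.

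The members, the 21 gene lists and the tests were chosen with earlier results of these data known. The text names all members and Hprt, and further genes where a list, count or sum needs them. By rule it names the 2 highest and 2 lowest called genes of each list and the 2 most like each member by Pearson r. A gene named by this rule in 1 list is not reported here.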

Additional observations from a re-analysis of the deposited data

Results flagged for a closer look

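Among 28 groups of 10 days examined (levels and ratios of the members), 2 held a day far from the others. The rule used flags about 1 in 20 groups of independent, normally distributed values. These groups are time courses and share libraries, so that rate need not hold for them. The same-day log2 ratio of Wnt1 on day 2 was 0.45, while the other days ran from -2.62 to -1.15. Wnt11 stood at 77.6 normalized reads in the control library of day 14, and the other control days ran from 12.9 to 36.0.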

How the results depend on the processing

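The number of genes called different between the lines was 7285, and 4761 with a pseudocount of 1 on recovered reads, an alternative that tests fewer genes (4753 with the recovered genes only, chosen after seeing the data). Control slopes numbered 5727, and 3420 on log2(day + 1). Knockdown slopes numbered 1687, and 121 on log2(day + 1) or 146 to 2847 when a day was left out. Differences in slope numbered 1875, and 1041 with day 6 kept or 555 to 1598 when a day was left out. Of the members, 5 differed between the lines under every left-out day, 3 without the pairing by day, and 1 at a log2 level of at least 8, which only Wnt7b and Wnt5a reach. Slopes of members, counted over the control, knockdown and difference fits together, were called 5 times. They were called 1 time at that level, 1 on log2(day + 1) and 3 to 7 when a day was left out. The 7, found without day 1, include the knockdown slope of Wnt1. List calls numbered 126, 113 to 130 when a day was left out, and 86 at that level, 88 with the pseudocount, 89 with the recovered genes only and 110 without the pairing. The lines were paired by day. Deviations of same-day libraries correlated with r of 0.13 to 0.40 on 8 days and -0.019 on day 0, and 4 of 9 days correlated best with their own partner. Without the replicate block, 5916 genes were called and Wnt1 and Wnt4 were lost. Values that turned sign, none of them called, were Wnt7a between the lines with day 6 kept (-0.12) and without day 1 (-0.035) or 2 (-0.022) (up to 0.51 without other days), Wnt11 without day 0 (-0.023, up to 0.35), the control slopes of Wnt7b without day 10 (-0.0033, up to 0.067) and Wnt8b without day 10 (0.0020) or 2 (0.022), the knockdown slope of Wnt5a without day 14 (-0.010), 2 (-0.0025), 3 (-0.0036) or 8 (-0.00033), up to 0.013 without others, and on log2(day + 1) (-0.0042), and the difference in slope of Wnt5b on log2(day + 1) (0.0082). The causes were not tested. Wnt3a, Wnt8b and, early in the control line, Wnt4 rest on few reads. In the knockdown line, Wnt8a, Musk and Cer1 also do.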
